A study of Arabidopsis thaliana with 12 samples.

Results

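The first steps of phenylpropanoid metabolism were followed at the transcript level through 10 genes, in Arabidopsis thaliana seedlings treated with sodium nitroprusside (SNP), a donor of nitric oxide (NO), and in untreated seedlings (Mock). The genes were chosen by locus, with earlier results of these data known. They encode the 4 phenylalanine ammonia-lyases PAL1 (AT2G37040), PAL2 (AT3G53260), PAL3 (AT5G04230) and PAL4 (AT3G10340), the cinnamate 4-hydroxylase C4H (AT2G30490), the 3 coumarate:CoA ligases 4CL1 (AT1G51680), 4CL2 (AT3G21240) and 4CL3 (AT1G65060), the methyltransferase CCoAOMT1 (AT4G34050) and the alcohol dehydrogenase CAD5 (AT4G34230). All 10 were among the 21623 genes present in both deposited tables, and all 10 passed the filter on low values that left 20623 genes for testing. All 10 are protein-coding genes of the nuclear genome. Their whole gene spans in the TAIR10.1 annotation are PAL1 (chr2:15557367-15560755), PAL2 (chr3:19744018-19747114), PAL3 (chr5:1160569-1163957), PAL4 (chr3:3203988-3208135), C4H (chr2:12993625-12996012), 4CL1 (chr1:19158746-19161737), 4CL2 (chr3:7454269-7457404), 4CL3 (chr1:24167202-24171635), CCoAOMT1 (chr4:16310409-16312308) and CAD5 (chr4:16386631-16388940).

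The 12 libraries fell into 4 groups of 3. Seedlings of Col-0, the wild type, 7 days after germination, were kept on plates of 1/2 MS medium that held 1 mM SNP (Col-0 SNP) or held none (Col-0 Mock) for 24 h. Seedlings of the ap1/cal double mutant, which carries lesions in the flower meristem regulators AP1 and CAL, were treated in the same way at the same age (ap1/cal SNP and ap1/cal Mock). Temperature, humidity and the long-day light regime were shared by all groups. The study calls its RNA-seq replicates biological. Whether the libraries of a group came from separate plates or pools of seedlings is not given in the labels, and the p-values measure the spread between these libraries.

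Phenylpropanoid metabolism diverts the amino acid phenylalanine into cinnamate, coumarate and their CoA esters. PAL removes the amino group, C4H, a cytochrome P450, hydroxylates the ring, and 4CL activates the acid with coenzyme A. From there the pathway divides into monolignols, the building blocks of lignin, which are completed by enzymes such as CCoAOMT1 and CAD5, and into flavonoids, sinapate esters and coumarins. In Arabidopsis, PAL1, PAL2 and C4H carry most of the entry flux, 4CL1 and 4CL2 are mainly tied to lignin and 4CL3 to flavonoids, and CAD5 acts with CAD4 in lignifying stems. Many promoters of the pathway hold short AC-rich elements that are bound by MYB transcription factors.

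Values are a normalised signal per gene, read as estimated read counts divided by one factor per library, and each genotype had its own table with its own scaling. The libraries held 22.5 to 59.7 estimated reads in units of 1e6, and the lowest value of any of the 10 genes rested on 80 estimated reads (PAL3 in ap1/cal SNP). The sum of the signal over all genes was, in the same units, 25.7 to 29.3 in Mock and 37.1 to 45.6 in SNP libraries. A gene is called here when its change on the log2(value + 1) scale has a Benjamini-Hochberg adjusted p below 0.05 in limma over all tested genes and is at least 1.5-fold. Of the mutated genes, CAL was listed in the ap1/cal table alone, at 2.93 to 8.28, and AP1 was not analysed here, so the mutation could not be checked from transcript levels. The green shoot and the root marker lists each had signal in every library, as in whole seedlings. Single markers could be nearly absent, as the root marker NRT2_1 held at most 1 estimated read in ap1/cal SNP libraries.

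SNP moved the 10 genes in opposite directions within a single pathway. In both genotypes PAL3, PAL4, 4CL1 and 4CL2 fell and CAD5 rose. 4CL3 and CCoAOMT1 were called higher in the wild type and not in ap1/cal, while PAL1 and PAL2 were called lower and C4H higher in ap1/cal and not in the wild type. This gave 7 called genes in the wild type (3 higher and 4 lower) and 8 in ap1/cal (2 higher and 6 lower). Calls were common in these data: 55.9% of all tested genes were called in the wild type (26.9% higher and 29.1% lower) and 62.9% in ap1/cal (29.8% higher and 33% lower). The shares among the 10 genes, the markers and each list of related genes below are to be read against these. The lists were also chosen with earlier results of these data known, so their shares are descriptive. The median log2 fold change of the 10 genes was -0.11 in the wild type and -0.83 in ap1/cal, against -0.02 and -0.04 for all tested genes.

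The SNP libraries carried the larger sums, and the direction of the smaller changes depended on the scaling. When library totals were made equal, the median of all tested genes moved to -0.51 in the wild type and -0.74 in ap1/cal, and the 10 genes then gave 0 higher and 5 lower calls in the wild type and 1 higher and 6 lower in ap1/cal. Equal upper quartiles gave 2 higher and 4 lower, and 1 higher and 6 lower. Over all tested genes, the 5538 higher and 5991 lower calls of the wild type became 3210 and 9458 with equal totals and 4084 and 7713 with equal upper quartiles, and the 6155 and 6813 of ap1/cal became 3122 and 11154, and 4261 and 8989. Such a rescaling shifts every gene and the median alike, apart from the pseudocount. By construction, each of the 10 changes thus moved by at most 0.0051 (log2) relative to the median of all tested genes, between the authors' scaling and equal totals. On that relative scale PAL1 in the wild type lay at the median (-0.01), PAL3 in ap1/cal was the lowest (-2.40) and CAD5 in ap1/cal the highest (1.62).

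Tissue markers were measured beside the 10 genes. In bulk tissue, fewer cells of a type and less RNA per cell cannot be told apart. Over all tested genes 29.1% were called lower in the wild type and 33% in ap1/cal. Of 9 xylem and secondary wall markers, 8 were called lower in each genotype. Their summed value was 4405 to 5264 in Col-0 Mock and 2554 to 3100 in Col-0 SNP, and 4526 to 5151 and 2246 to 2506 in ap1/cal. Root markers were called lower in 4 of 5 cases in the wild type and 5 of 5 in ap1/cal, with sums of 129932 to 164835 in Col-0 Mock and 18136 to 21444 in SNP, and 115763 to 123747 and 10906 to 13529 in ap1/cal. Of the 5 green shoot markers 3 were called higher in each genotype, and 0 with equal totals. The endodermis markers gave 1 higher and 1 lower call of 7 in the wild type and 2 lower calls in ap1/cal, and with equal totals 4 and 6 lower calls. With equal totals 9458 (wild type) and 11154 (ap1/cal) of all 20623 tested genes were called lower. The part of tissue composition in the changes of the 10 genes was not tested.

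**Figure D1:**
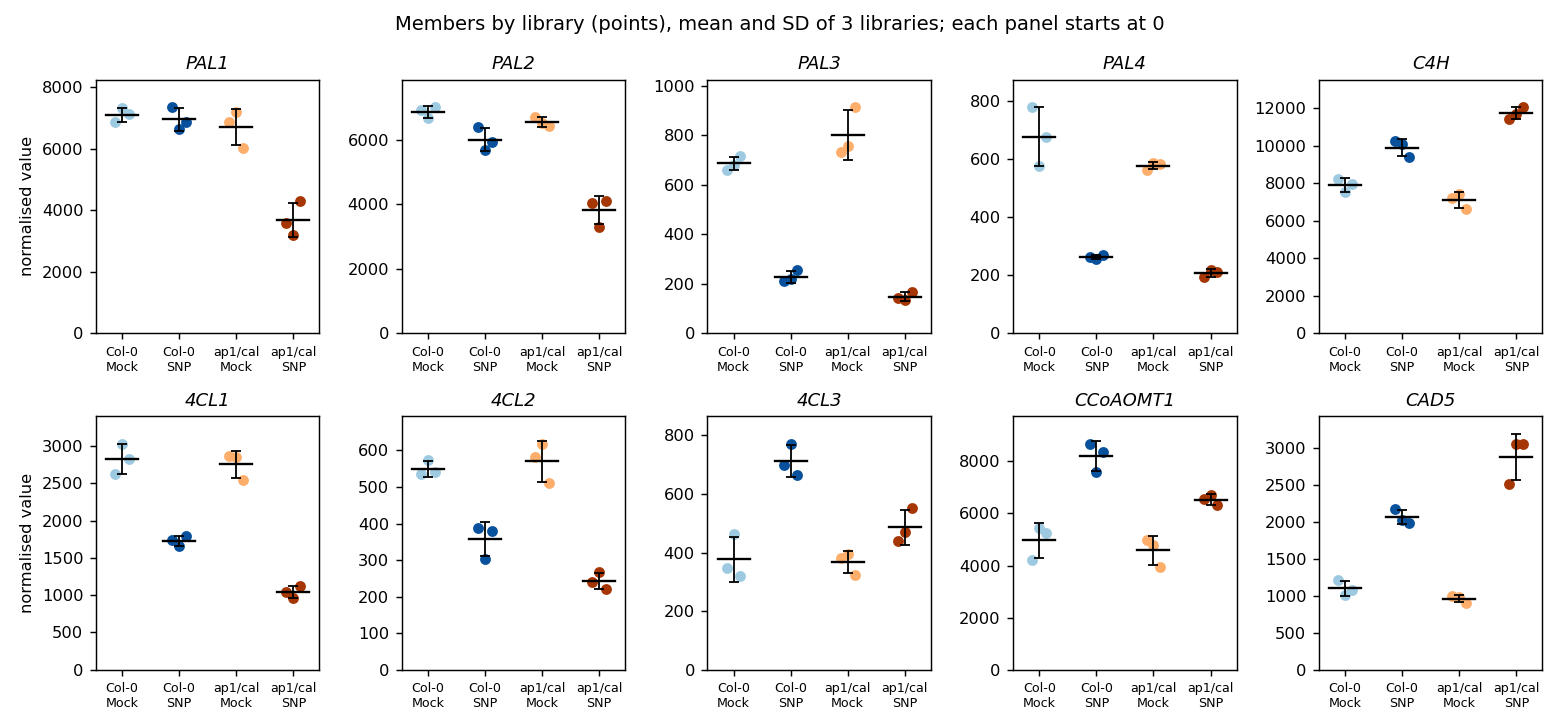
Normalised value (linear axis from 0) of each of the 10 genes in every library; points are libraries, horizontal lines the group means and error bars the SD (n = 3). PAL3 and PAL4 sat at 133 to 269 in all SNP libraries and at 563 to 914 in all Mock libraries, while PAL1 in the wild type overlapped between treatments. The genotypes were scaled separately, so levels are compared within a genotype.

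PAL1 had values of 6860, 7313 and 7129 in wild-type Mock libraries and 7360, 6636 and 6880 in those with SNP. For ap1/cal the values were 6881, 7197 and 6035 (Mock) and 3571, 3198 and 4290 (SNP). The Col-0 libraries overlapped, whereas every ap1/cal SNP library lay below every ap1/cal Mock library. On the log2 scale it changed by -0.03 in the wild type (95% interval -0.25 to 0.19, limma adjusted p = 0.794) and -0.87 in ap1/cal (SE 0.0995, adjusted p = 2.34e-06), in which PAL1 fell by 45.3%. The changes themselves differed between the genotypes, by -0.84 (ap1/cal minus Col-0, SE 0.141, adjusted p = 0.00121). With equal library totals the PAL1 change was -0.53 in the wild type, under 1.5-fold, and -1.58 in ap1/cal. With equal upper quartiles it was -0.29 and -1.24.

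PAL2, the closest relative of PAL1, followed it. Its values were 6913, 6656 and 7015 in wild-type Mock libraries and 6384, 5691 and 5910 in those with SNP. Mock libraries of ap1/cal had 6714, 6500 and 6412, and SNP libraries 4038, 3302 and 4085. SNP libraries lay below Mock libraries in both genotypes, narrowly in the wild type. The Col-0 change of -0.20 had an adjusted p of 0.0423 in limma but did not reach the 1.5-fold criterion, and the ap1/cal change was -0.79 (SE 0.0815, adjusted p = 8.43e-07). With equal library totals the Col-0 change was -0.69 and was called, and with equal upper quartiles it was -0.45, under 1.5-fold. The difference of -0.59 (SE 0.115, adjusted p = 0.0030) lay just past the 1.5-fold line, which is 0.585 on the log2 scale, and fell inside it when Col-0 Mock replicate 2 (-0.57), Col-0 SNP replicate 1 (-0.54), ap1/cal Mock replicate 1 (-0.57) or ap1/cal SNP replicate 2 (-0.49) was left out. When the trend of fold change with exon length and GC content was removed, the ap1/cal changes of PAL1 (-0.50) and PAL2 (-0.42) and the difference of PAL2 (-0.53) no longer reached 1.5-fold.

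PAL3 and PAL4, the weakly expressed members of the family, showed the deepest falls among the 10 genes. PAL3 had 661, 681 and 715 in wild-type Mock libraries and 211, 217 and 255 in those with SNP. ap1/cal libraries held 731, 757 and 914 in Mock and 141, 133 and 167 in SNP. No SNP library came near any Mock library. SNP against Mock gave a log2 fold change of -1.59 in the wild type (SE 0.115, limma adjusted p = 2.9e-08) and -2.44 in ap1/cal (SE 0.115, adjusted p = 2.57e-10), and the 2 changes differed by -0.85 (SE 0.163, adjusted p = 0.00279).

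PAL4 had 781, 577 and 677 in wild-type Mock libraries and 261, 257 and 269 in those with SNP. For ap1/cal the values were 563, 586 and 584 (Mock) and 194, 219 and 211 (SNP). As for PAL3, the treatments were far apart in both genotypes. The log2 change was -1.35 in the wild type (SE 0.102, limma adjusted p = 4.36e-08) and -1.47 in ap1/cal (SE 0.102, adjusted p = 1.37e-08). The difference of -0.12 was not called (95% interval -0.43 to 0.20, adjusted p = 0.595), so PAL4 was the PAL gene for which no difference between the genotypes was detected.

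The 4 PAL genes are similar in sequence but distinct enough to be counted apart. PAL1 and PAL2 were identical at 82.4% of aligned coding bases, PAL3 and PAL4 at 76.4%, and the other pairs at 65.2 to 71.5%. Of all 75-base windows of the transcripts, 0.216% (PAL1) and 0.219% (PAL2) also occurred elsewhere in the genome, and 0% for the other 8 genes. Within a library the composition of the PAL pool does not depend on the scaling. Per kilobase of exon, PAL3 made up 4.80 to 5.09% of the summed PAL signal in Col-0 Mock and 1.65 to 2.13% in Col-0 SNP, and 5.43 to 7.23% in ap1/cal Mock and 1.98 to 2.15% in ap1/cal SNP. PAL4 went from 4.02 to 5.44% in Mock to 1.96 to 2.16% in SNP in the wild type, and from 4.01 to 4.42% to 2.57 to 3.40% in ap1/cal. PAL1 and PAL2 together therefore held most of the pool in every group. The share of PAL1 was 44.4 to 47.3% in Mock and 51.1 to 51.3% in SNP in the wild type, without overlap, and 42.5 to 47.1% and 44.4 to 48.5% in ap1/cal, with overlap. That of PAL2 overlapped in the wild type (43.7 to 45.4% and 44.6 to 45.1%) and was higher with SNP in ap1/cal (43.2 to 45.8% and 46.8 to 51.0%). These shares were chosen after the values were seen and are given as descriptions.

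C4H, the single-copy hydroxylase that uses the product of PAL, moved the other way. Its values were 8250, 7511 and 7945 in wild-type Mock libraries and 10235, 10085 and 9392 in those with SNP. Mock libraries of ap1/cal had 7207, 7446 and 6603, and SNP libraries 11438, 11688 and 12076. All SNP libraries were above all Mock libraries of their genotype. On the log2 scale it changed by 0.33 in the wild type (SE 0.0689, limma adjusted p = 0.000727), under the 1.5-fold criterion, and 0.73 in ap1/cal (SE 0.0689, adjusted p = 3.29e-07). The difference of 0.40 had an adjusted p of 0.0102 and was also under 1.5-fold. With equal library totals the C4H change was -0.17 in the wild type and 0.02 in ap1/cal, and with equal upper quartiles the ap1/cal change was 0.36. Of the scalings run, only that of the authors gave C4H a call in ap1/cal.

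The ratio of C4H to PAL within a library is free of the scaling. C4H signal per kilobase was 0.684 to 0.751 of the summed PAL signal per kilobase in Col-0 Mock and 0.982 to 1.10 in Col-0 SNP. It was 0.654 to 0.686 in ap1/cal Mock and 1.92 to 2.37 in ap1/cal SNP. The Mock groups were close together and the ap1/cal SNP libraries stood farthest out. Against the summed signal of 4CL1, 4CL2 and 4CL3 C4H was at a ratio of 2.16 to 2.75 in Col-0 Mock and 3.82 to 4.24 in Col-0 SNP, and of 2.20 to 2.29 in ap1/cal Mock and 7.29 to 7.83 in ap1/cal SNP. These ratios were also chosen after the values were seen and carry no test.

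**Figure D2:**
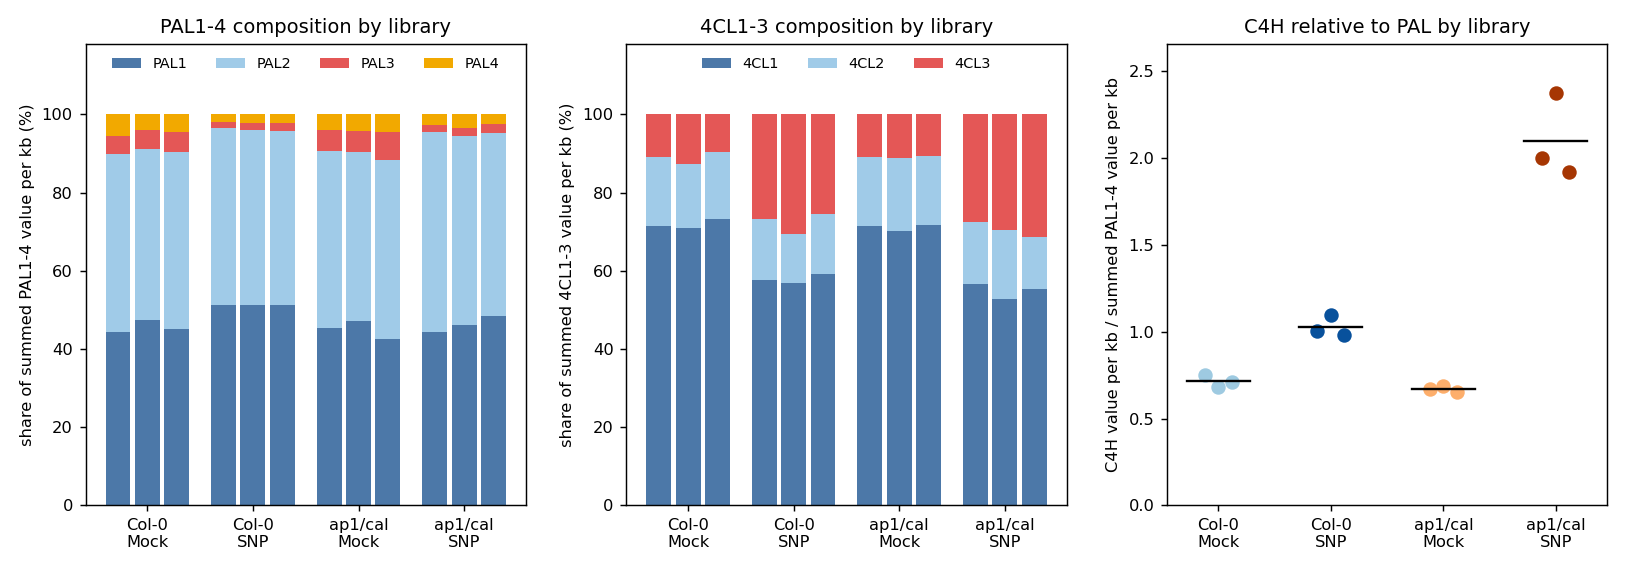
Left and centre, share (%) of each gene in the summed signal per kilobase of the PAL and of the 4CL genes, one stacked bar per library; right, ratio of C4H to summed PAL signal per kilobase, with points for libraries and lines for the means (n = 3). PAL3 shrank with SNP in both genotypes, 4CL3 was 9.55 to 12.6% of the 4CL signal in the Mock libraries and 25.4 to 31.4% in the SNP libraries, and the C4H ratio was highest in ap1/cal SNP (1.92 to 2.37).

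The 4CL genes, which activate coumarate and related acids, split by member. 4CL1, the most abundant, had 2630, 3035 and 2832 in wild-type Mock libraries and 1736, 1657 and 1789 in those with SNP. ap1/cal libraries held 2870, 2852 and 2545 in Mock and 1041, 965 and 1124 in SNP. The treatments did not overlap in either genotype. SNP against Mock gave a log2 fold change of -0.71 in the wild type (SE 0.0783, limma adjusted p = 1.97e-06) and -1.40 in ap1/cal (SE 0.0783, adjusted p = 1.43e-09), with a difference of -0.69 (SE 0.111, adjusted p = 0.000922). AT1G51670 overlaps 4CL1 on the opposite strand, and whether the counting used the strand is not given in the sources used here, so some reads of the pair cannot be told apart. After removal of the trend with length and GC content the Col-0 changes of 4CL1 (-0.47) and 4CL2 (-0.49) no longer reached 1.5-fold.

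4CL2 had 535, 575 and 541 in wild-type Mock libraries and 388, 303 and 380 in those with SNP. For ap1/cal the values were 581, 619 and 510 (Mock) and 241, 266 and 222 (SNP). SNP libraries were lower throughout, and replicate 2 was the lowest of the Col-0 SNP group. The log2 change was -0.63 in the wild type (SE 0.112, limma adjusted p = 0.000171) and -1.23 in ap1/cal (SE 0.112, adjusted p = 2.35e-07). Without Col-0 SNP replicate 2 the Col-0 change was -0.52 and its call was lost. The difference of -0.59 (SE 0.158, adjusted p = 0.0170) sat at the 1.5-fold line and fell inside it, at -0.53 to -0.58, when any of 7 single libraries was left out, namely Col-0 Mock replicate 1 or 3, Col-0 SNP replicate 1 or 3, ap1/cal Mock replicate 1 or 2, or ap1/cal SNP replicate 3. It also fell inside after removal of the trend with length and GC content (-0.57).

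4CL3, the ligase tied to flavonoids, went the opposite way. It had 347, 465 and 319 in wild-type Mock libraries and 699, 772 and 665 in those with SNP. Mock libraries of ap1/cal had 383, 394 and 325, and SNP libraries 438, 469 and 553. SNP libraries were higher in both genotypes, by a wider margin in the wild type. On the log2 scale it changed by 0.93 in the wild type (SE 0.138, limma adjusted p = 3.31e-05) and 0.40 in ap1/cal (adjusted p = 0.0157, under 1.5-fold). The difference of -0.53 (SE 0.195, adjusted p = 0.0666) was not called, and it became called without Col-0 Mock replicate 2 (-0.69), ap1/cal Mock replicate 3 (-0.61) or ap1/cal SNP replicate 3 (-0.62). Both other scalings also called the 4CL3 difference, at -0.74 with equal library totals and -0.64 with equal upper quartiles. With equal library totals 4CL3 was at 0.43 in the wild type and -0.31 in ap1/cal. Within the 4CL pool, where the scaling has no part, 4CL3 was 9.55 to 12.6% of the signal per kilobase in Col-0 Mock and 25.4 to 30.6% in Col-0 SNP, and 10.6 to 11.2% in ap1/cal Mock and 27.5 to 31.4% in ap1/cal SNP. 4CL1 took the complementary course, with 71.0 to 73.4% in Col-0 Mock and 56.8 to 59.2% in Col-0 SNP, and 70.2 to 71.8% in ap1/cal Mock and 52.7 to 56.5% in ap1/cal SNP. 4CL1 and 4CL2 shared 79.0% of coding bases, and 4CL3 shared 63.6% with 4CL1 and 63.5% with 4CL2.

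CCoAOMT1, which methylates caffeoyl-CoA on the way to guaiacyl and syringyl lignin, rose in the wild type. It had 4205, 5447 and 5257 in wild-type Mock libraries and 8679, 7570 and 8374 in those with SNP. ap1/cal libraries held 4998, 4804 and 3956 in Mock and 6570, 6705 and 6319 in SNP. The treatments were apart in both genotypes. SNP against Mock gave a log2 fold change of 0.73 in the wild type (SE 0.107, limma adjusted p = 3.03e-05) and 0.52 in ap1/cal (SE 0.107, adjusted p = 0.000539), the latter under 1.5-fold. The difference of -0.21 was not called (95% interval -0.54 to 0.11, adjusted p = 0.332). With equal library totals the changes were 0.23 and -0.19, and with equal upper quartiles the Col-0 change was 0.47, each without a call.

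CAD5, which reduces the aldehydes to monolignols, had 1215, 1007 and 1078 in wild-type Mock libraries and 2170, 2025 and 1991 in those with SNP. For ap1/cal the values were 993, 980 and 906 (Mock) and 2515, 3061 and 3060 (SNP). SNP libraries were far above Mock libraries in each genotype. The log2 change was 0.91 in the wild type (SE 0.0907, limma adjusted p = 7.36e-07) and 1.58 in ap1/cal (SE 0.0907, adjusted p = 1.88e-09), a 2.99-fold rise. The difference of 0.67 (SE 0.128, adjusted p = 0.00269) was called under the authors' scaling and not with equal totals (0.46) or equal upper quartiles (0.56). In ap1/cal the rise of CAD5 was called under every scaling, with 0.87 at equal totals. In the wild type it was 0.41 at equal totals, without a call.

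The difference between genotypes was called for 6 of the 10 genes, 1 toward a more positive change in ap1/cal (CAD5) and 5 toward a more negative one (PAL1, PAL2, PAL3, 4CL1 and 4CL2). Over all tested genes 14.6% were called in this comparison, 7.6% more positive and 6.97% more negative. Of the other genes, C4H missed the fold criterion, 4CL3 missed both criteria, and PAL4 and CCoAOMT1 had intervals that included 0. Under a stricter test, in which limma asks whether the change exceeds 1.5-fold, 4 of the 10 changes were called in the wild type and 7 in ap1/cal, against 40.6% and 48.9% of all tested genes. For the difference this test called 0 of the 10, against 1.64%, and 1 had an unadjusted p below 0.05. After removal of the trend with length and GC content 5 of the 10 were called in the wild type, 6 in ap1/cal and 4 for the difference, against 52.8%, 60.1% and 14.5% of the genes tested. With equal library totals or equal upper quartiles the difference was called for 6 genes, all of them more negative in ap1/cal (0 more positive), since the call of CAD5 was lost and 4CL3 gained one.

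**Figure D3:**
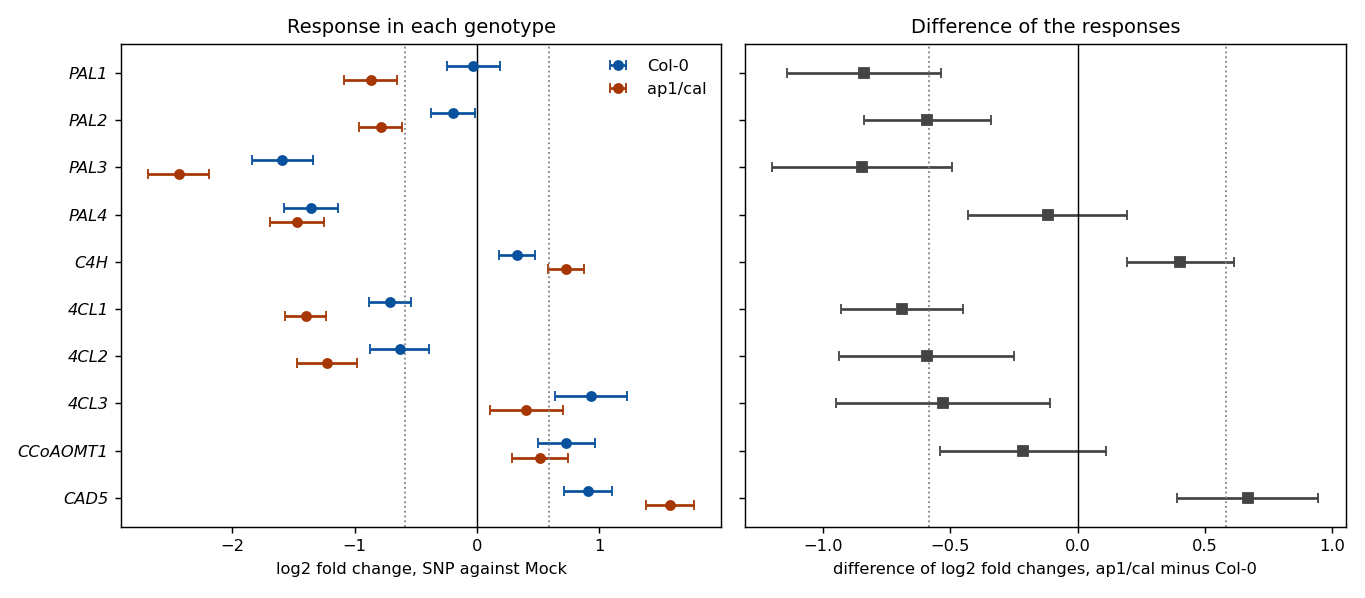
Left, log2 fold change of SNP against Mock in the wild type (blue) and ap1/cal (brown) with 95% intervals; right, the difference of these changes, ap1/cal minus Col-0, with 95% intervals; dotted lines mark a fold of 1.5. PAL1 is near 0 in the wild type (-0.03) and at -0.87 in ap1/cal, PAL4 lies together in both, and CAD5 is the gene with the most positive difference (0.67).

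The order of the 10 genes by signal per kilobase also changed. In Col-0 Mock it ran from C4H (3794 ± 178) through CCoAOMT1 (3206 ± 432), PAL1 (2423 ± 77.7), PAL2 (2377 ± 64.0), 4CL1 (1107 ± 79.2) and CAD5 (680 ± 65.3) to PAL3 (263 ± 10.4), 4CL2 (263 ± 10.3), PAL4 (249 ± 37.4) and 4CL3 (170 ± 35.0) (SD, n = 3). PAL1 and PAL2 overlapped, as did PAL3, 4CL2 and PAL4. The order in ap1/cal Mock was the same, with overlap between C4H and CCoAOMT1, PAL1 and PAL2, and PAL3 and 4CL2. With SNP, CAD5 rose past 4CL1 in the wild type (1274 ± 58.8 against 675 ± 25.9) and past both PAL1 and PAL2 in ap1/cal (1778 ± 195 against 1258 ± 189 and 1319 ± 152), without overlap. PAL3 became the lowest of the 10 in both genotypes, at 87.3 ± 9.25 in Col-0 SNP, where it overlapped PAL4, and 56.3 ± 6.85 in ap1/cal SNP, where it did not.

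Promoter sequence was then set beside these changes. In the 300 bases before each annotated gene start, both strands were searched for the AC elements AC-I (ACCTACC), AC-II (ACCAACC) and AC-III (ACCTAAC), for the W box (TTGACC or TTGACT) bound by WRKY factors and for the G box (CACGTG). An AC element was present in 4 of the 10 windows, those of 4CL2, 4CL3, CCoAOMT1 and CAD5, against 7.16% of all 27443 nuclear protein-coding windows of the same length. AC-I stood in 4CL3 and CCoAOMT1 (1.33% of all windows) and AC-II in 4CL2 and CAD5 (3.18%), and AC-III, which 2.93% of windows hold, in 0 of the 10. A W box was found in PAL1 and PAL2 (32.3% of all windows) and a G box in PAL4 (7.09%). Under the authors' scaling the 3 genes called higher in the wild type each held an AC element, and so did 4CL2, which fell, whereas the window of C4H held none. In ap1/cal the genes called higher were C4H and CAD5, and 4CL3 and CCoAOMT1 were not called. With equal library totals 0 of the 10 genes were called higher in the wild type. The window of 4CL2 lies mostly inside the neighbouring gene AT3G21250 and is not shown. A match is a string of letters, and binding was not measured. An absence covers these exact strings in 300 bases alone, and variant elements and other stretches were not searched. The 250 bases next to the gene start of the 3 genes are printed here 5′ to 3′ on the gene's strand, from the RefSeq annotation of TAIR10.1, with the AC elements in capitals. They are at chr1:24171636-24171885 (minus strand, 4CL3), chr4:16310159-16310408 (plus strand, CCoAOMT1) and chr4:16388941-16389190 (minus strand, CAD5).
4CL3: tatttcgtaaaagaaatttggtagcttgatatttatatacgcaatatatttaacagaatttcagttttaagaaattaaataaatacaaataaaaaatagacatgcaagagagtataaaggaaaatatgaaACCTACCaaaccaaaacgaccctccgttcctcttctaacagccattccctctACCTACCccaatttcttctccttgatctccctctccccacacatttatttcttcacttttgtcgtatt
CCoAOMT1: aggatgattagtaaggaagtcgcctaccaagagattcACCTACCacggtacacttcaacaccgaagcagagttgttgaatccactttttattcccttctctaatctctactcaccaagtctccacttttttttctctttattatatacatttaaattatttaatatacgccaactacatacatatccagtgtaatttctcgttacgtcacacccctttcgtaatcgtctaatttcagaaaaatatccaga
CAD5: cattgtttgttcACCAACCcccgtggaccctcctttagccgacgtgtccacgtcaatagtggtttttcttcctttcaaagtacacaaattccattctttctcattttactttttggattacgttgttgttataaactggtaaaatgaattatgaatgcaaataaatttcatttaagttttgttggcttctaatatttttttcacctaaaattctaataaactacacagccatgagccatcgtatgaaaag

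The elements of 4CL3 begin at positions -120 and -68, that of CCoAOMT1 at -213 and that of CAD5 at -238, counted back from the gene start.

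The other enzymes of monolignol synthesis divided in the same uneven way. Of 14 tested, 3 were called higher and 3 lower in the wild type and 5 higher and 5 lower in ap1/cal. With equal library totals 2 were higher and 7 lower in each genotype, where 9458 (wild type) and 11154 (ap1/cal) of all 20623 tested genes were lower. Equal upper quartiles gave 3 and 4, and 3 and 5. CCR2, a cinnamoyl-CoA reductase linked to defence, rose from 128 ± 13.4 to 2040 ± 217 in the wild type (log2 fold change 3.99, limma adjusted p = 7.23e-11). The ap1/cal means were 101 ± 15.9 and 818 ± 168 (3.0). CCR1, the other listed reductase of this step, was at 3236 ± 109 in Col-0 Mock and 2737 ± 51.0 in ap1/cal Mock. Under the authors' scaling CCR1 changed by -0.03 in the wild type and -0.05 in ap1/cal, without a call. ATR2, a reductase that passes electrons to C4H and the other P450 enzymes of the pathway, rose by 3.39 and 3.46 on the log2 scale. HCT, which makes the shikimate ester that follows 4CL, changed by -1.87 in the wild type and -2.51 in ap1/cal, and F5H1, which directs the pathway to syringyl units, by -1.98 and -2.11.

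Relatives of CAD5 moved in both directions. CAD4 changed by 0.98 in the wild type (called) and 0.58 in ap1/cal (not called), with a difference of -0.41, under 1.5-fold. Of the 6 tested genes of the CAD family outside CAD4 and CAD5, 3 were called higher in both genotypes, 1 was called lower in the wild type and 0 in ap1/cal. With equal totals 2 of the 6 were higher in the wild type and 1 was lower in ap1/cal. Over all tested genes 26.9% and 29.8% were called higher and 29.1% and 33% lower. The lower call in the wild type was CAD9, at -1.10, and CAD9 was at -0.55 in ap1/cal. CAD1 changed by 2.08 in the wild type and 3.46 in ap1/cal and CAD7 by 0.99 and 1.78, each with a called difference (1.38 and 0.79, limma adjusted p = 0.00028 and 0.0059), and for CAD7 the Col-0 call and the difference were lost with equal totals. CAD8 was at 42.5 ± 29.9 in wild-type Mock libraries and 969 ± 355 in those with SNP. In ap1/cal Mock it lay at or under 2 estimated reads in each library (values of 0 to 1.93), and in ap1/cal SNP it was at 1929 ± 97.5. No fold is given for a group at this floor.

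Phenylalanine supply upstream of PAL was measured through 19 genes of the shikimate and phenylalanine pathways, of which 7 were called higher and 2 lower in each genotype. Over all tested genes 26.9% were called higher and 29.1% lower in the wild type, and 29.8% and 33% in ap1/cal. Under equal totals the split of the 19 genes was 4 higher and 6 lower in the wild type and 1 higher and 8 lower in ap1/cal, and under equal upper quartiles 5 and 5 in the wild type and 4 and 2 in ap1/cal. Equal totals gave 9458 (wild type) and 11154 (ap1/cal) lower calls over all 20623 tested genes. The arogenate dehydratases, which make phenylalanine, were divided: ADT4 changed by 2.10 in the wild type and 1.25 in ap1/cal and ADT5 by -1.17 and -2.01. SK1, a shikimate kinase, changed by 1.96 and 3.58 and CM3, a chorismate mutase, by -1.56 and -1.70. At equal totals ADT4 lost its call in ap1/cal, and the other 7 of these changes stayed called.

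The Kelch-repeat F-box proteins that mark PAL enzymes for degradation were listed with PAL. KFB01 rose from 1071 ± 229 to 2804 ± 142 in the wild type (log2 fold change 1.41) and from 925 ± 76.7 to 3242 ± 377 in ap1/cal (1.80). KFB39 changed by 2.64 and 2.74, KFB20 by 0.55 (not called) and 0.86, and KFB50 by -2.35 and -2.27. Thus 2 of 4 were called higher and 1 lower in the wild type, and 3 higher and 1 lower in ap1/cal, where KFB20 lost its call under both other scalings. Protein levels were not measured.

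Genes whose products polymerise monolignols outside the cell were mostly lower with SNP. Of 8 tested laccases and peroxidases of lignin, 7 were called lower in the wild type and 8 in ap1/cal, against 29.1% and 33% of all tested genes, and 0 were called higher. Their median log2 fold changes were -1.11 and -1.82. The list was chosen with earlier results of these data known, so these counts and medians are descriptive. The xylem and secondary wall markers, a list with no gene in common, had medians of -1.38 and -1.68 and the root markers of -2.83 and -4.35, and the part of tissue composition in the lower values of these laccases and peroxidases was not tested. PRX25 changed by -2.97 and -2.82, PRX64 by -0.90 and -1.10, and PRX72 by -0.72 and -1.02. PRX2 changed by -4.57 and -6.93, but all of its 75-base windows also occur at another locus. Its value is therefore uncertain, and it is among the lower calls counted above.

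Transcription factors known to act on phenylpropanoid or lignin genes did not move as one. Of 15 listed activators 9 were tested, and those left untested include MYB58, NST1, NST2 and NST3. Of the 9 tested, 2 were called higher and 2 lower in the wild type and 2 higher and 3 lower in ap1/cal. Equal totals gave 7 lower in ap1/cal, where 11154 of all 20623 tested genes were then lower. MYB46, MYB83, VND6 and VND7 were tested and not called in either genotype under the authors' scaling. MYB15, an activator of defence lignin, went from 11.8 ± 4.67 to 269 ± 12.4 in the wild type (log2 fold change 4.46) and from 8.39 ± 5.08 to 68.2 ± 27.9 in ap1/cal (2.95), and MYB63, which binds AC elements, changed by 2.10 and 1.79. MYB20 changed by -2.30 and -2.18 and MYB43 by -1.97 and -2.01. Of the 4 repressors, MYB4, which represses C4H, changed by 2.10 and 1.60, MYB7 by 0.75 and 1.00, KNAT7 by -0.64 and -1.21, and MYB32 by -0.34 and 0.24 (not called in either). Thus 2 repressors were called higher and 1 lower in each genotype, and 1 and 2 in the wild type with either other scaling and 1 and 1 in ap1/cal with equal totals. MYB7 lost its calls at equal totals in both genotypes, and KNAT7 lost its Col-0 call in 1 of the 12 fits that left out a library.

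The branches that draw on the products of 4CL were also uneven. Of 3 flavonoid genes, the hydroxylase F3H changed by 1.27 in the wild type and 0.74 in ap1/cal, the isomerase CHI by 0.69 and 0.16 and the chalcone synthase CHS, the first enzyme, by 0.19 and 0.13. CHS was not called in either genotype and CHI was called in the wild type, and the CHS change and the ap1/cal change of CHI turned negative when totals or upper quartiles were made equal. Under these scalings CHI also lost its Col-0 call (0.19 and 0.43) and F3H its ap1/cal call (0.03 and 0.37), which left 1 of the 3 genes called higher in the wild type and 0 in ap1/cal. CHI lost that Col-0 call after removal of the trend with length and GC content as well (0.40). In the coumarin branch, 1 of 7 genes was called higher and 4 lower in the wild type, and 0 higher and 5 lower in ap1/cal. The shares over all tested genes were 26.9% higher and 29.1% lower in the wild type, and 29.8% and 33% in ap1/cal. F6'H1, which makes the precursor of scopoletin, changed by -1.90 and -2.91, the coumarin synthase COSY by -0.77 and -1.24 and the exporter ABCG37 by -0.98 and -1.33. F6'H2 was at 25.1 ± 7.28 and 27.1 ± 7.18 in the Mock groups and at or under 3 estimated reads in each SNP library (values of 0 to 0.831 and 0 to 4.97). Of 8 genes of sinapate esters and monolignol glucosides, 2 were called higher and 3 lower in each genotype, and 2 and 5 with equal totals. UGT84A2, which glucosylates sinapate, changed by 1.43 and 1.40, and the monolignol glucosyltransferases UGT72E2 and UGT72E3 were each at -2.70 in the wild type and at -4.57 and -3.35 in ap1/cal.

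Overlap with a neighbouring gene limits some of these values. CCR1, CCR2, SK1, CM3, KFB39, KFB50, PRX64, F6'H1, COSY, CHS and F3H overlap another annotated gene, so reads may be shared as for 4CL1.

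**Figure D4:**
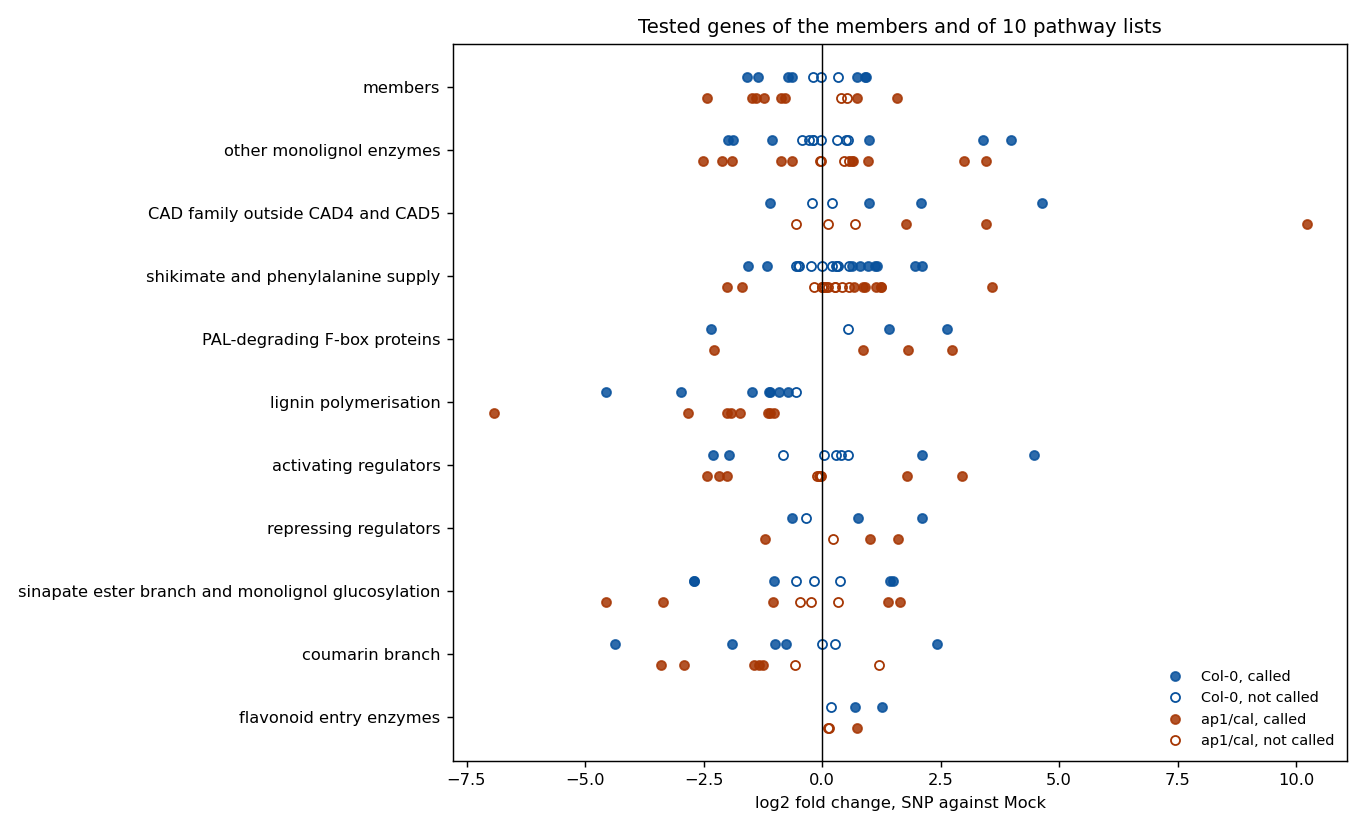
Log2 fold change of SNP against Mock for each tested gene of the 10 genes (top row) and of 10 lists of related genes, in the wild type (blue) and ap1/cal (brown); filled points were called and open points were not. The lignin polymerisation genes lie wholly below 0 in both genotypes (medians -1.11 and -1.82), while the 10 genes at the top lie on both sides. The point farthest to the right, CAD8 in ap1/cal, has a Mock group at the detection floor, so its position depends on the pseudocount.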

How the data were processed

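RNA was poly(A)-selected and built into directional libraries, and the authors aligned 75-base reads to TAIR10 with STAR, per the labels and the methods. The methods describe shoot apices, while the labels of these libraries give seedlings. The deposited values are a normalised signal per gene in a table per genotype. For genes with 1 annotated transcript, 100% of values up to 50 were whole multiples of one step per library (tolerance 0.001), so signal was read as estimated counts over one size factor per library, set within each genotype's table. Since 66.8 to 70.2% of all low values were whole, no count test was run. The counting tool is not given in the sources used here.

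The 20623 genes of both tables that reached 10 in 3 or more of 12 libraries entered limma 3.58.1 (R 4.3.3) on log2(value + 1), with 4 group means, empirical Bayes moderation with a trend, and Benjamini-Hochberg adjustment. Fold changes on this scale understate changes of low genes. The script was tested on simulated data. The 1.5-fold criterion is that of the study. Gene lists and the 10 genes were chosen with earlier results of these data known. All 10 genes are named. From each list up to 4 are named, those called in both genotypes with the same sign that had the largest and smallest Col-0 changes. Lists of 4 or fewer are named whole. CAD4, CAD9, CCR1, S8H, NRT2_1 and some activators are named in addition. Replicate numbers were checked for pairing. Deviations of same-numbered Mock and SNP libraries correlated at 0.064, 0.059 and -0.055 in Col-0 and at 0.122, 0.121 and 0.167 in ap1/cal. The numbers may thus pair libraries (every pair over 0.1) in ap1/cal alone. The main fit has no replicate block, so the printed p-values, SEs and intervals do not use such pairing. A fit with a block in both genotypes was run as an alternative. Alternatives were other scalings, pseudocounts of 0.5 and 5, no filter, other fold criteria, a length and GC correction, each table alone, a replicate block and leaving out each library. Identifiers matched TAIR10.1 for 99.284% of genes; exon lengths, coding identity and promoters come from that annotation. A protein comparison was planned, and coding bases were compared instead.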

Additional observations from a re-analysis of the deposited data

Results flagged for a closer look

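For 6 of the 10 genes the SNP response differed between the genotypes by the test of the difference itself (limma, adjusted over all 20623 tested genes). On the log2 scale, ap1/cal minus Col-0, the differences were -0.84 for PAL1, -0.59 for PAL2, -0.85 for PAL3, -0.69 for 4CL1, -0.59 for 4CL2 and 0.67 for CAD5. Under the authors' scaling PAL1 is the clearest contrast in the values, since its Col-0 libraries overlapped between treatments and its ap1/cal libraries did not. Its Col-0 change was -0.53 with equal library totals and -0.29 with equal upper quartiles, without a call in either. PAL2 and 4CL2 lie at the 1.5-fold line, and the difference of CAD5 was not called with equal library totals (0.46) or equal upper quartiles (0.56). Over all tested genes 14.6% were called in this comparison. A limma test of whether the difference exceeds 1.5-fold called 0 of the 10 genes, and 1 had an unadjusted p below 0.05.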

How the results depend on the processing

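Across 22 alternatives, PAL3 and PAL4 kept their calls in both genotypes, as did 4CL1, 4CL2 and CAD5 in ap1/cal. The number of called genes among the 10 (7 in Col-0, 8 in ap1/cal, 6 for the difference) was 6 to 7, 8 and 4 to 7 when single libraries were left out. A test against a fold of 1.5 gave 4 in Col-0 and 0 for the difference, and over all genes 338 called differences against 3006, while any fold gave 4817. With the trend in length and GC content removed, 5, 6 and 4 of the 10 were called, and the lower calls in Col-0 went from 4 to 2 (4CL1 and 4CL2 lost). With library totals made equal, changes reversed for C4H (-0.17) and CHS (-0.31) in Col-0 and for 4CL3 (-0.31), CCoAOMT1 (-0.19), MYB32 (-0.46), CHS (-0.58) and CHI (-0.55) in ap1/cal. With equal upper quartiles they reversed for CHS in Col-0 (-0.0695) and for MYB32 (-0.13), CHS (-0.24) and CHI (-0.21) in ap1/cal, with the trend in length and GC content removed for PAL1 (0.28) and PAL2 (0.11) in Col-0 and CHI in ap1/cal (-0.17). PAL1 in Col-0 ranged from -0.071 to 0.0036 when single libraries were left out, and was -0.53 with equal totals and -0.29 with equal upper quartiles. PAL2 in Col-0 gained a call with equal totals (-0.69). Apart from the scalings' own shift of the median, the cause was not tested. A fit with the replicate number as a block called 7, 8 and 6 of the 10 genes, and the replicate block changed no call among them. Depth limits CAD8 in ap1/cal Mock and F6'H2 in SNP, which lie at the floor of 3 estimated reads; floors cover counting error alone.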
